A study of Homo sapiens with 8 samples.

Results

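Transcript levels of SMYD3 and 9 other enzymes that methylate histones or related proteins (SMYD2, EZH1, EZH2, NSD1, NSD2, SETD2, DOT1L, EHMT1 and SUV39H1) were examined in MOLM14 leukaemia cells grown in mice. The 10 genes were taken by symbol from a table of 60676 genes. SMYD3 was chosen by its measured counts, selected on its higher level with gilteritinib in the bone marrow libraries. Its values in that comparison are therefore given as a description with no test. The 9 other enzymes and the gene lists used below were chosen with earlier results of these data known. Their shares of called genes are therefore descriptions and not an independent test. All 10 passed the count filter in both tissue labels, where 14029 genes were tested in marrow and 14092 in the libraries labelled liver.

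MOLM14 is a human acute myeloid leukaemia line with FLT3-ITD (an internal tandem duplication in FLT3) and a rearranged MLL gene, KMT2A (MLLr), and every library shares this engrafted line. Gilteritinib, a FLT3 kinase inhibitor, was given for 1 week, and the ketogenic diet for 3 weeks. Under each of the 2 tissue labels there was 1 library of gilteritinib with ketogenic diet, 1 of gilteritinib with standard diet, 1 of vehicle with ketogenic diet and 1 of vehicle with standard diet. Marrow RNA was from human CD45 sorted cells, while the other 4 libraries were labelled as whole liver extract of mouse and MOLM14 cells. Mouse age, strain and the number of animals behind a library are not given in the labels used here. Each tissue label goes with 1 batch code, so tissue and batch cannot be told apart. No combination was replicated, so p-values within a label rest on 4 libraries fitted with drug and diet terms. The spread behind them is the departure from additive drug and diet effects, shared across genes, and not a spread between replicates. It may be technical or hold a true drug by diet interaction. Tests of differences between labels and of the interaction rest on all 8 libraries.

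Library totals in marrow were 15557885 and 20783534 counts with gilteritinib, against 16290265 and 33611830 with vehicle. Under the liver label they were 26499478 and 27657147 with gilteritinib, against 13605936 and 16542212 with vehicle, so depth went with the drug there. Leukaemia markers summed to between 663 and 830 CPM in marrow (counts scaled to library size with TMM factors) and between 506 and 756 CPM under the liver label. FLT3, at 349 to 595 CPM over the 8 libraries, made up most of each sum. KIT was at most 0.656 CPM and ANPEP at most 0.901 CPM. Of 8 human hepatocyte markers, ALB, TTR, APOB and CYP3A4 were at 0 counts in all 8 libraries, which allows up to 0.22 CPM in the shallowest one, and the sum was at most 0.599 CPM.

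Histone methyltransferases place methyl groups on lysines of the histone tails and core, and the residue and the number of methyl groups set which reader proteins bind. SMYD3 and SMYD2 have a SET domain split by a MYND zinc finger and also methylate proteins other than histones, SMYD3 the kinase MAP3K2 and SMYD2 the tumour suppressors p53 and RB1. EZH1 and EZH2 are the alternative catalytic subunits of Polycomb repressive complex 2 (PRC2), NSD1, NSD2 and SETD2 methylate lysine 36 of histone H3, EHMT1 and SUV39H1 methylate lysine 9 of histone H3, and DOT1L, which lacks a SET domain, methylates lysine 79 and is recruited by MLL fusion proteins.

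The windows of 250 bases before the transcription start of SMYD3, EZH2 and NSD2 are printed because these genes had the largest drug differences among the 10 in marrow. They are RefSeq sequence (GRCh38.p14), 5′ to 3′ on the strand of the gene, at chr1:246507280-246507529 (minus strand), chr7:148884292-148884541 (minus strand) and chr4:1871143-1871392 (plus strand). Capitals mark motifs found on either strand.
SMYD3: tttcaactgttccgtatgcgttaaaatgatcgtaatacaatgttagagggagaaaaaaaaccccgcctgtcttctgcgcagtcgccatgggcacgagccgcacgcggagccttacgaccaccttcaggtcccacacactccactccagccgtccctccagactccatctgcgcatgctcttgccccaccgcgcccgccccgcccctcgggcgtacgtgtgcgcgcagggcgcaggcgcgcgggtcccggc
EZH2: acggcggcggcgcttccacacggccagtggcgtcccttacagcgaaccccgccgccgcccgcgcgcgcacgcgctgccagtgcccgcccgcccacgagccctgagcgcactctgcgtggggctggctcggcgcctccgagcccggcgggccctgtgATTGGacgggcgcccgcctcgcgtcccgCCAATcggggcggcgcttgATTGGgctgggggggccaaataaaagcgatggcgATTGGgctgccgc
NSD2: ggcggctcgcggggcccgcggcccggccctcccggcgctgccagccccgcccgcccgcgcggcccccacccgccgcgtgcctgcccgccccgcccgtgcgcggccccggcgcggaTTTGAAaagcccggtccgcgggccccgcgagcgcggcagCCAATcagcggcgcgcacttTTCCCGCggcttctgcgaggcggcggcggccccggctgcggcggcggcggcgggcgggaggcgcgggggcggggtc
The letters searched were GCGGGAA and TTTGGCG (E2F-type sites), TTTGAA (the cell cycle genes homology region, CHR), CCAAT (the NF-Y box) and CACGTG (an E-box), on both strands, and none of these motifs contains another. EZH2 held 4 CCAAT boxes, NSD2 held 1 GCGGGAA, 1 TTTGAA and 1 CCAAT, and SMYD3 held none of the 5. Of 27305 promoter windows of the same length, 33.0% held CCAAT, 5.59% GCGGGAA, 13.6% TTTGAA, 1.604% TTTGGCG and 6.49% CACGTG. SMYD3 had 27 CpG dinucleotides in its window, EZH2 38 and NSD2 50, against a median of 11 over all windows. A promoter sequence was matched by symbol for 9 of the 10 genes, all but DOT1L. Of the other 6 matched windows, EZH1 held 1 TTTGGCG, NSD1 held 1 TTTGGCG and 1 CACGTG, and SMYD2, SETD2, EHMT1 and SUV39H1 held none.

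Per length, SMYD3 had the highest level of the 10 transcripts in each of the 4 gilteritinib libraries (38.5 to 55.2 TPM, transcript level scaled here by exon length and depth), SUV39H1 in each of the 4 vehicle libraries (27.5 to 29.6 TPM, against 21.9 to 26.6 TPM for SMYD3), and EZH1 the lowest in all 8. The first of these rests in part on the marrow values that chose SMYD3. Median levels over the 8 libraries were 32.6 TPM for SMYD3, 27.1 for SUV39H1, 22.8 for SMYD2 and 18.7 for EZH2. DOT1L had a median of 15.97 TPM, SETD2 9.80, NSD2 7.99, NSD1 6.98 and EHMT1 4.33 TPM. EZH1 stood at 1.43 TPM and was counted 41 to 171 times per library, the fewest counts among the 10. Across the 8 libraries the highest CPM was 2.80 times the lowest for SMYD3, 2.20 times for SUV39H1, 2.16 times for EZH2 and 2.06 times for NSD2. The same ratio was 1.16 for SMYD2, 1.175 for SETD2 and 1.199 for EHMT1, the 3 steadiest genes.

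**Figure D1:**
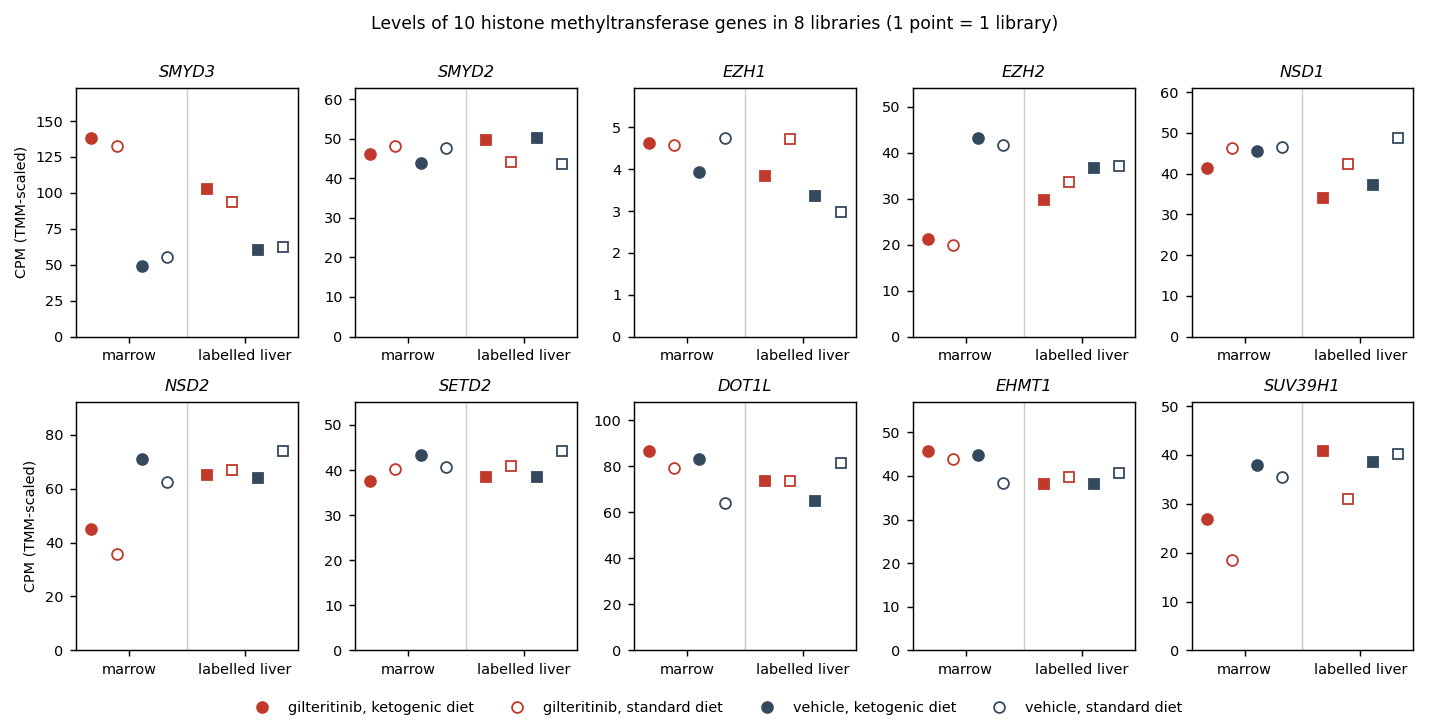
Level of each of the 10 enzymes in the 8 libraries, in CPM scaled with TMM factors, where each point is 1 library, marrow on the left and the liver label on the right. SMYD3 lies at 139 and 133 CPM in the gilteritinib marrow libraries and at 49.4 and 55.6 CPM in the vehicle ones, while EZH2 lies the other way round.

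SMYD3 was higher with gilteritinib under both tissue labels. In marrow it stood at 139 CPM (ketogenic diet) and 133 CPM (standard diet) with gilteritinib, against 49.4 CPM (ketogenic diet) and 55.6 CPM (standard diet) with vehicle. Under the liver label it stood at 103 CPM (ketogenic diet) and 93.4 CPM (standard diet) with gilteritinib, against 60.6 CPM (ketogenic diet) and 62.4 CPM (standard diet) with vehicle. The drug groups did not overlap under either label, as with 28.6% of tested genes in that direction in marrow, where the separation is part of what chose the gene, and 18.2% under the liver label. The fitted drug difference in marrow was 1.37 on the log2 scale (SE 0.11), a 2.58-fold higher level and the 142nd highest of 14029, given without a test because it chose the gene.

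The libraries labelled liver were not used to pick SMYD3, and there it rose by 0.67 on the log2 scale (SE 0.13), 1.59-fold, with an adjusted p of 7.24e-05 in edgeR's quasi-likelihood test with Benjamini-Hochberg adjustment. SMYD3 was the 1 called gene of the 10 in that comparison, against 2.26% of all tested genes called in either direction and 1.41% called higher. The adjusted p was 0.0554, 0.185 or 0.171 when the vehicle library on standard diet, the vehicle library on ketogenic diet or the gilteritinib library on ketogenic diet was left out, with log2 differences of 0.76, 0.58 and 0.58, and it was 0.0932 without a count filter. The marrow difference exceeded that of the libraries labelled liver by 0.69 on the log2 scale (SE 0.16), also described without a test.

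Between single libraries SMYD3 was 2.80-fold higher with gilteritinib on ketogenic diet and 2.38-fold higher on standard diet in marrow. Under the liver label the ratios were 1.69 on ketogenic diet (95% interval 1.58 to 1.82, counting error only) and 1.497 on standard diet (1.39 to 1.62). In order of CPM the gilteritinib marrow libraries came highest, then the gilteritinib libraries labelled liver, the vehicle libraries labelled liver and the vehicle marrow libraries. With 1 library per combination there is no spread against which neighbours in that order could be compared. SMYD3 was not called for the diet: the ketogenic minus standard difference was -0.06 in marrow (SE 0.11, edgeR adjusted p = 0.902) and 0.05 in the libraries labelled liver (SE 0.13, edgeR adjusted p = 0.951).

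Markers of myeloid differentiation were also higher with gilteritinib. Of 18 listed genes 13 were tested, and 11 rose in marrow, where 10.5% of all tested genes were called higher, and 9 in the libraries labelled liver, where 1.41% were. In marrow CD163, a scavenger receptor of macrophages, rose by 2.53 (SE 0.22, edgeR adjusted p = 1.50e-12), LYZ, lysozyme, by 1.40 (SE 0.12, edgeR adjusted p = 7.61e-13) and CSF1R, the receptor of the macrophage growth factor, by 1.22 (SE 0.14, edgeR adjusted p = 1.41e-08), all on the log2 scale. The sum of the list was 4498 to 5440 CPM with gilteritinib, against 1958 to 2158 CPM with vehicle, in marrow, and 6459 to 6888 CPM with gilteritinib, against 2095 to 2317 CPM with vehicle, in the libraries labelled liver. LYZ made up most of that sum. Without LYZ it was 539 and 577 CPM with gilteritinib, against 383 and 402 CPM with vehicle, in marrow, and 405 and 527 CPM with gilteritinib, against 350 and 418 CPM with vehicle, under the liver label, where the groups then overlapped. DESeq2 called 8 of the 13 in marrow and 3 under the liver label. Markers of Kupffer cells and macrophages summed to 15.8 and 15.9 CPM with gilteritinib, against 2.35 and 3.67 CPM with vehicle, in marrow, and to 6.21 and 9.98 CPM with gilteritinib, against 3.11 and 4.44 CPM with vehicle, under the liver label, with TIMD4 at 0 in all 8. CD163, also a gene of the myeloid list, carried that sum, and the rest of the list came to 0.262 to 1.72 CPM in the 8 libraries. The stromal and endothelial list added up to 305 to 331 CPM with gilteritinib, against 222 to 228 CPM with vehicle, in marrow, and to 251 to 255 CPM with gilteritinib, against 206 to 213 CPM with vehicle, under the liver label, nearly all of it PECAM1, with COL3A1, CDH5 and KDR at 0. Lymphoid markers, nearly all NKG7 and with MS4A1 at 0, came to 93.9 to 105 CPM with gilteritinib, against 64.05 to 74.7 CPM with vehicle, in marrow, and to 64.6 to 76.2 CPM with gilteritinib, against 80.1 to 81.1 CPM with vehicle, under the liver label. The part of these lists in the SMYD3 difference was not tested, and in bulk RNA fewer cells of a type and less RNA per cell cannot be told apart.

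SMYD3 occupies chr1:245749342-246507312 on the minus strand (GRCh38, GENCODE 29), a span of 757971 bases, and 28 of 11227 tested protein-coding genes were longer. The 6 annotated genes that overlap it, antisense and intronic RNAs and a pseudogene among them, had 0 counts in all libraries. KIF26B, a kinesin family gene that ends 39.9 kb away, rose in marrow by 1.14 log2 units (SE 0.19, edgeR adjusted p = 1.07e-05), with 11.9 and 13.1 CPM with gilteritinib against 5.63 and 5.73 CPM with vehicle. In the libraries labelled liver KIF26B differed by 0.28 (SE 0.21, edgeR adjusted p = 0.740). TFB2M, a mitochondrial transcription factor 33.2 kb to the other side, fell in marrow by 0.49 (SE 0.13, edgeR adjusted p = 0.00409) and differed by -0.03 in the libraries labelled liver (edgeR adjusted p = 0.984). CNST, which lies beyond TFB2M, differed by -0.29 in marrow (edgeR adjusted p = 0.175), and EFCAB2, beyond KIF26B, by -0.09 (edgeR adjusted p = 0.689).

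The 5 genes whose pattern over the 8 libraries was most like that of SMYD3, by the root mean square difference of centred log2 CPM among 10154 genes, were LGALS3 (0.108), RNASE3 (0.114), PRAM1 (0.124), CCL5 (0.126) and BLVRB (0.135). LGALS3 encodes galectin-3, RNASE3 a granule ribonuclease, CCL5 a chemokine and BLVRB a biliverdin reductase. RNASE3 stood at 56.1 and 50.7 CPM with gilteritinib, against 22.3 and 23.5 CPM with vehicle, in marrow, and at 45.2 and 45.5 CPM with gilteritinib, against 23.0 and 26.0 CPM with vehicle, in the libraries labelled liver. EZH2 lay far from SMYD3 by the same measure (0.928). The measure uses the marrow libraries that chose SMYD3, so likeness to it there, and the distance of EZH2, follow in part from that choice. Under the liver label the log2 drug differences were 0.44 for LGALS3, 0.89 for RNASE3, 0.75 for PRAM1, 0.43 for CCL5 and 0.51 for BLVRB. These are described without a test, since the measure also uses those libraries.

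SMYD2, the close relative of SMYD3, was not called for the drug. SMYD2 had 46.1 and 48.2 CPM with gilteritinib, against 43.8 and 47.5 CPM with vehicle, in marrow, and 49.7 and 44.1 CPM with gilteritinib, against 50.3 and 43.5 CPM with vehicle, in the libraries labelled liver. Its drug differences were 0.04 in marrow (SE 0.12, edgeR adjusted p = 0.843) and 0.00 in the libraries labelled liver (SE 0.14, edgeR adjusted p = 0.999). SMYD4 differed by -0.30 and SMYD5 by -0.21 in marrow, and neither was called (edgeR adjusted p = 0.331 and 0.279). Of 6 reported substrates of SMYD3 and SMYD2, RB1 fell in marrow by 0.51 (SE 0.11, edgeR adjusted p = 6.10e-04) and the chaperone HSP90AA1 by 0.30 (SE 0.11, edgeR adjusted p = 0.0407), while MAP3K2 differed by -0.18 (edgeR adjusted p = 0.382). These 2 of 6 compare with 9.82% of all tested genes called lower in marrow, and DESeq2 called 1 of the 6.

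EZH2, NSD2 and SUV39H1 fell with gilteritinib in marrow. These were 3 of the 9 genes tested there, 33.3%, all lower, where 20.3% of all tested genes were called, 10.5% higher and 9.82% lower. The 9 were chosen with earlier results of these data known, so this share is a description. EZH2 had 21.3 and 20 CPM with gilteritinib, against 43.3 and 41.7 CPM with vehicle, and NSD2 had 45.1 and 35.9 CPM with gilteritinib, against 71.0 and 62.5 CPM with vehicle. SUV39H1 had 26.8 CPM (ketogenic diet) and 18.5 CPM (standard diet) with gilteritinib, against 38.0 and 35.6 CPM with vehicle. The drug groups of all 3 stood apart, with both gilteritinib libraries below both vehicle libraries.

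On the log2 scale EZH2 fell by 1.04 (SE 0.13, edgeR adjusted p = 3.02e-08), NSD2 by 0.73 (SE 0.12, edgeR adjusted p = 5.67e-06) and SUV39H1 by 0.72 (SE 0.14, edgeR adjusted p = 7.87e-05). SUV39H1 was not called without the marrow vehicle library on standard diet (-0.51) or the gilteritinib library on standard diet (-0.50). In both fits its marrow difference rested on the pair of libraries on ketogenic diet. On ketogenic diet SUV39H1 was 0.704 times its vehicle level with gilteritinib (95% interval 0.625 to 0.791), and on standard diet 0.520 times (0.456 to 0.592). The drug by diet interaction of SUV39H1 was 0.43 (SE 0.24, edgeR adjusted p = 0.923). SETD2 also had both marrow gilteritinib libraries, at 37.6 and 40.3 CPM, below both vehicle libraries, at 43.4 and 40.6 CPM, with a difference of -0.11 (SE 0.12, edgeR adjusted p = 0.585). Such a complete separation downward held for 29.4% of all tested genes in marrow and upward for 28.6%.

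In the libraries labelled liver these falls were not called. EZH2 had 29.7 and 33.6 CPM with gilteritinib, against 36.7 and 37.1 CPM with vehicle, a difference of -0.23 (SE 0.14, edgeR adjusted p = 0.639), with groups that did not overlap, as for 18.1% of tested genes in that direction. NSD2 had 65.0 and 66.8 CPM with gilteritinib, against 63.8 and 73.9 CPM with vehicle (-0.06, SE 0.13, edgeR adjusted p = 0.958), and SUV39H1 had 40.7 and 31.0 CPM with gilteritinib, against 38.5 and 40.3 CPM with vehicle (-0.15, SE 0.14, edgeR adjusted p = 0.830). For both the groups overlapped.

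The drug difference in marrow minus that in the libraries labelled liver was -0.82 for EZH2 (SE 0.18, edgeR adjusted p = 0.0131) and -0.67 for NSD2 (SE 0.16, edgeR adjusted p = 0.0273), and both were called. They were 2 of 9 tested genes, where 2.49% of all tested genes were called, and 1.62% with the lower value in marrow. SUV39H1 had a difference of -0.57 that was not called (SE 0.20, edgeR adjusted p = 0.161). The call was lost for EZH2 in 5 and for NSD2 in all 8 of the fits that left out 1 library, with adjusted p of up to 0.192 and 0.154. For EZH2 those 5 left out the marrow vehicle library on standard or ketogenic diet, the marrow gilteritinib library on standard diet, or the gilteritinib or vehicle library on standard diet under the liver label. Tissue label and batch code coincide, so this difference cannot be assigned to either.

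**Figure D2:**
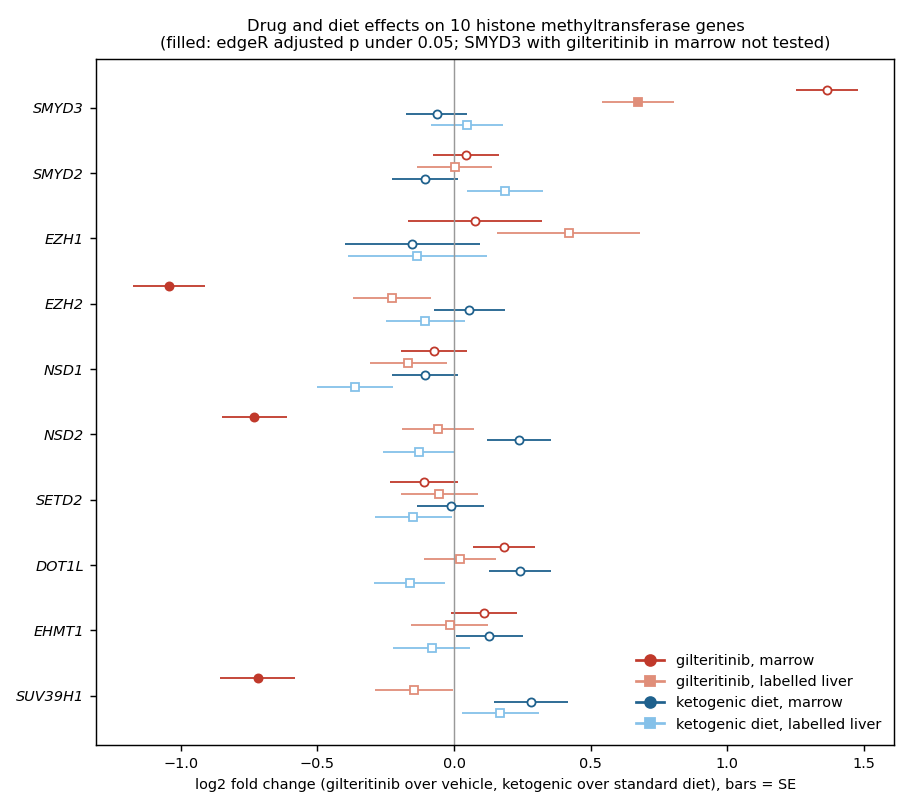
Fitted log2 differences of the 10 enzymes for gilteritinib minus vehicle and ketogenic minus standard diet under each tissue label, with bars of 1 SE; filled points were called. EZH2 lies at -1.04 and NSD2 at -0.73 for the drug in marrow, and SMYD3 at 1.37 in marrow and 0.67 in the libraries labelled liver. The diet points lie between -0.15 and 0.28 in marrow and between -0.36 and 0.19 under the liver label, and none was called.

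Proliferation genes fell in the same marrow libraries. Of 34 listed and tested genes 32 were called lower (32 by DESeq2), against 9.82% of all tested genes. E2F1 (-0.38, edgeR adjusted p = 0.0638) and E2F2 (-0.34, edgeR adjusted p = 0.383) were lower too but not called. The list had a median log2 difference of -1.02, against -0.01 over all tested genes. TOP2A, a DNA topoisomerase of dividing cells, fell by 1.55 (SE 0.11, edgeR adjusted p = 4.50e-15), BUB1, a spindle checkpoint kinase, by 1.43 (SE 0.12, edgeR adjusted p = 1.99e-12) and AURKA, a mitotic kinase, by 1.40 (SE 0.12, edgeR adjusted p = 3.52e-12). The list summed to 2274 to 2820 CPM with gilteritinib, against 4669 to 4733 CPM with vehicle, in marrow. Under the liver label it summed to 4284 to 4480 CPM with gilteritinib, against 4493 to 4803 CPM with vehicle. There 2 of 34 were called lower, against 119 of all 14092 tested genes, with 10 of the 34 at an unadjusted p under 0.05 and 0 called by DESeq2. Of the 34 genes 29 had a different drug effect between the labels, all with the lower value in marrow, against 1.62% of all tested genes. DESeq2 called 27 of the 34. The 5 genes most like EZH2 over the 8 libraries were SAP130 (0.0847), WDR76 (0.0926), CKAP5 (0.0976), NCAPD2 (0.0988) and UHRF1 (0.103). CKAP5 acts on spindle microtubules, NCAPD2 is a condensin subunit, and UHRF1, itself in the proliferation list, maintains DNA methylation. NSD2 (0.176) and SUV39H1 (0.234) were nearer to EZH2 than the other 7 genes of the 10. The measure uses the marrow libraries in which EZH2, NSD2 and SUV39H1 were called lower, so this nearness follows in part from those falls. The part of proliferation in the drug differences of EZH2, NSD2 and SUV39H1 was not tested.

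**Figure D3:**
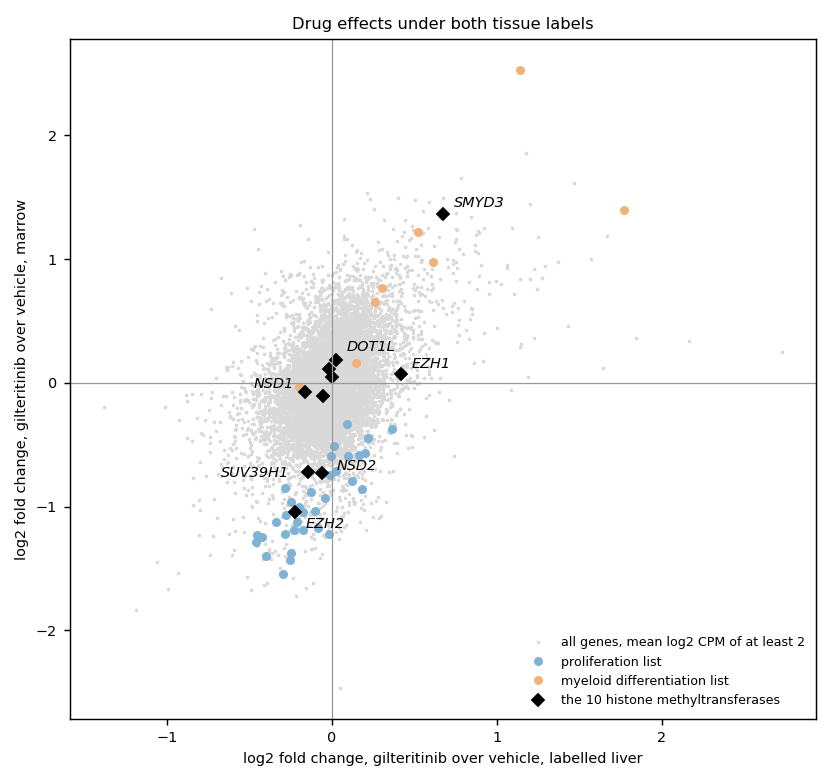
Gilteritinib minus vehicle log2 differences in marrow (y axis) and under the liver label (x axis), for genes averaging 2 or more in log2 CPM (grey), the proliferation and myeloid differentiation lists (blue and orange) and the 10 enzymes (black diamonds). SMYD3 lies at 1.37 in marrow and 0.67 under the liver label, and EZH2 lies among the proliferation genes at -1.04 and -0.23.

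Partners of EZH2 in PRC2 fell in marrow too. Of 9 tested partners 6 fell, against 9.82% of all tested genes, with a list median of -0.39, the largest being EED, the subunit that reads the methyl mark, by 0.59 (SE 0.15, edgeR adjusted p = 0.00299), SUZ12, a scaffold subunit, by 0.54 (SE 0.11, edgeR adjusted p = 2.59e-04) and PHF19, a Polycomb-like accessory factor, by 0.50 (SE 0.13, edgeR adjusted p = 0.00514). DESeq2 called 2 of them. None of the 9 was called in the libraries labelled liver (median 0.03; 0 at an unadjusted p under 0.05 and 0 by DESeq2), and SUZ12 differed between the labels by -0.64 (SE 0.16, edgeR adjusted p = 0.0386), where DESeq2 called none of the 9. EZH1, the alternative catalytic subunit, was not called: it had 4.64 and 4.58 CPM with gilteritinib against 3.93 and 4.76 CPM with vehicle in marrow (0.08, SE 0.25, edgeR adjusted p = 0.872). Under the liver label EZH1 had 3.84 and 4.73 CPM with gilteritinib against 3.35 and 2.99 CPM with vehicle (0.42, SE 0.26, edgeR adjusted p = 0.629), with groups that did not overlap, as for 18.2% of tested genes in that direction.

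The remaining enzymes were not called for the drug under either label. NSD1 had 41.4 and 46.3 CPM with gilteritinib, against 45.6 and 46.5 CPM with vehicle, in marrow (-0.07, SE 0.12, edgeR adjusted p = 0.725). EHMT1, which acts with EHMT2 in a complex, had 45.6 and 44.0 CPM with gilteritinib, against 44.9 and 38.3 CPM with vehicle (0.11, SE 0.12, edgeR adjusted p = 0.576). DOT1L had 86.5 and 79.2 CPM with gilteritinib, against 83.1 and 63.9 CPM with vehicle (0.18, SE 0.11, edgeR adjusted p = 0.269). Under the liver label SETD2 had 38.4 and 40.9 CPM with gilteritinib, against 38.4 and 44.1 CPM with vehicle, and DOT1L had 73.7 and 73.7 CPM with gilteritinib, against 64.8 and 81.2 CPM with vehicle. EHMT1 had 38.1 and 39.9 CPM with gilteritinib there, against 38.1 and 40.6 CPM with vehicle. Each of these 3 had overlapping drug groups there, and together with NSD1 their drug differences lay between -0.17 and 0.02. DOT1L shares exon bases with PLEKHJ1 on the opposite strand (13935 counts over the 8 libraries), and NSD1 with the pseudogene PRMT1P1 (191 counts). Because the counting strand is not stated, reads of such pairs cannot be told apart.

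Of the other histone lysine methyltransferases listed, 20 of 21 were tested, and 2 fell in marrow: SUV39H2, a relative of SUV39H1, by 0.59 (SE 0.16, edgeR adjusted p = 0.00514) and KMT5A, which monomethylates lysine 20 of histone H4, by 0.44 (SE 0.13, edgeR adjusted p = 0.0116). That count of 2 in 20 is near the 9.82% of all tested genes called lower there, and DESeq2 called 0 of the 20. None was called in the libraries labelled liver (0 at an unadjusted p under 0.05, and 0 by DESeq2). The 7 other lysine 4 methyltransferases of histone H3, KMT2A among them (0.11 in marrow, edgeR adjusted p = 0.738), had none called in marrow (0 at an unadjusted p under 0.05, and 0 by DESeq2). The list of 6 partners of enzymes of that family held COMPASS core subunits and menin among others. Of these, RBBP5 fell by 0.52 (SE 0.13, edgeR adjusted p = 0.00296) and ASH2L by 0.34 (SE 0.11, edgeR adjusted p = 0.0182) in marrow. There 9.82% of all tested genes were called lower, and DESeq2 called 0 of the 6. CBX5, the heterochromatin protein that binds methylated lysine 9, fell by 0.44 (SE 0.11, edgeR adjusted p = 0.00347). Of 5 DOT1L and elongation partners none was called (1 at an unadjusted p under 0.05, and 0 by DESeq2).

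**Figure D4:**
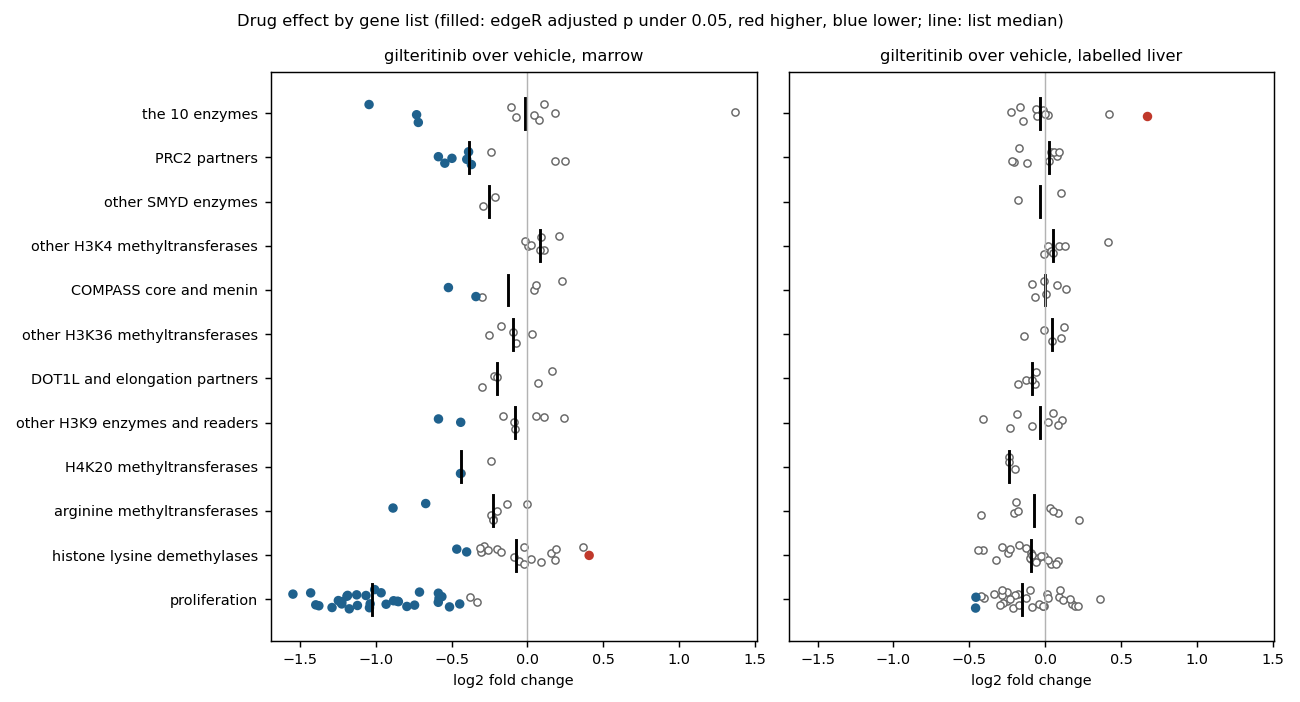
Gilteritinib minus vehicle log2 differences of each tested gene in the listed groups under both tissue labels, with a line at each list's median and filled points for called genes. Proliferation genes lie low in marrow (median -1.02) and near 0 in the libraries labelled liver (median -0.15), and PRC2 partners lie at a median of -0.39 in marrow and 0.03 under the liver label.

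No enzyme of the 10 was called for the ketogenic diet. In marrow 0 of 10 were called, where 0.492% of all tested genes were, with 3 at an unadjusted p under 0.05 and 0 by DESeq2 or limma-voom. These 3 were NSD2 (0.24), DOT1L (0.24) and SUV39H1 (0.28), each with the higher fitted level on ketogenic diet and edgeR adjusted p of 0.534, 0.496 and 0.517. DOT1L and EHMT1 had both ketogenic marrow libraries above both standard diet ones, as had 12.5% of tested genes, and NSD1 and SMYD2 had both below, as had 12%, with DOT1L at 86.5 and 83.1 CPM on ketogenic diet, against 79.2 and 63.9 CPM on standard diet. In the libraries labelled liver 0 of 10 were called, against 1.01% of all tested genes, with 1 at an unadjusted p under 0.05 and 0 by DESeq2 or limma-voom. That gene was NSD1, with 34.0 and 37.1 CPM on ketogenic diet, against 42.4 and 48.9 CPM on standard diet (-0.36, SE 0.14, edgeR adjusted p = 0.265). NSD1, NSD2, SETD2 and EHMT1 had both ketogenic libraries below both standard diet ones there, as had 18.1% of tested genes, and SMYD2 had both above, as had 17.9%. No gene in the whole table was called for the diet difference between labels or for the drug by diet interaction. At an unadjusted p under 0.05 there were 712 and 706, and DESeq2 called 3 and 0. In simulated counts these fits recovered only 7.22% and 9.38% of 1.5-fold changes.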

How the data were processed

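RNA was measured in 8 libraries. Per the labels' protocols, messenger RNA libraries were sequenced with paired ends. The authors deposited raw gene counts, whole numbers with no normalization. Alignment to GRCh38 used STAR 2.7.3a, per the submitters' processing notes. How reads were counted, on which annotation and strand, is not given in the sources used here. Symbols came from the deposited table and coordinates from GENCODE 29, which holds 96.4% of the identifiers. All per-sample columns were mapped to samples by their names.

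The 10 enzymes and the gene lists were chosen with earlier results of these data known. Within each label, a gene was tested if at least 2 of 4 libraries held 10 counts or more, in edgeR 4.0.16 (R 4.3.3), with TMM scaling, robust quasi-likelihood fits and terms for drug and diet, which leave 1 residual degree of freedom. In marrow the median prior degrees of freedom was 47.4, and in the libraries labelled liver it was infinite, so standard errors there rest mostly on the spread shared across genes. Differences between labels and the drug by diet interaction were fitted on all 8 libraries. Tests were two-sided, with Benjamini-Hochberg adjustment over all tested genes, with a threshold of 0.05, and log2 CPM used a prior count of 2. Intervals of single-library ratios are exact conditional 95% intervals and, like the limit of 3 counts behind a count of 0, cover counting error only, since reads carry no molecular identifiers. TPM used exon-union lengths.

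Named genes were the 10 enzymes, up to 3 called genes per list and comparison with the largest difference at a mean log2 CPM of 2 or more, the 5 genes most like SMYD3 and EZH2, and the neighbours of SMYD3. SMYD4, SMYD5, MAP3K2, KMT2A, E2F1, E2F2 and the marker genes named for their counts were named after their values were seen. Alternatives were relative log expression and library-total scaling, no count filter, DESeq2 1.42.0, limma-voom (limma 3.58.1) and a fit without the other factor. Further ones were all 8 libraries with separate terms per label, each library left out and, chosen after seeing the data, counts thinned to the smallest library. Libraries were left out of fits on all 8, not of the fits within a label. A label that lost a library kept 1 in a drug arm and 1 in a diet arm. The fits were tested on simulated counts.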

Additional observations from a re-analysis of the deposited data

Results flagged for a closer look

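EZH2 and NSD2 responded to gilteritinib differently under the tissue labels, by a test of the difference itself. Leaving out 1 library at a time took away the call for EZH2 in 5 and for NSD2 in all 8 fits. For EZH2 the marrow minus labelled liver difference of the drug effect was -0.82 on the log2 scale, and for NSD2 it was -0.67. Proliferation genes differed between the labels in the same direction, 29 of 34 by the same test (27 by DESeq2), against 1.62% of all tested genes. The part of the proliferation list in the differences of EZH2 and NSD2 was not tested.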

How the results depend on the processing

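Over the 10 enzymes and 7 fitted effects, 67 values were tested. Of their 904 alternative values 885 stayed on the same side of the threshold, most of them for values never called. No called value changed direction, and 19 lost a call. SMYD3 under the liver label lost its call in 4 of 16 alternatives and SUV39H1 in marrow in 2 of 16. For the difference between labels, EZH2 lost its call in 5 of 10 and NSD2 in 8 of 10. In marrow EZH2 and NSD2 lost it in 0 of 16. Of 36 alternative values of the 3 untested SMYD3 values, 30 moved by less than 1 SE and 6 by more. SMYD3 in marrow ranged from 1.22 with library totals to 1.49 with a library left out. With library totals, which move the median of all genes in marrow by -0.15, 3648 genes were called for the drug there (874 higher, 2774 lower) against 2850 (1473 higher, 1377 lower), and EZH2, NSD2 and SUV39H1 were still called.

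Genes called for gilteritinib in marrow numbered 1221 without a filter, 1170 by DESeq2, 1671 without the diet term and 853 to 2457 with a library left out. For the diet in marrow, 69 were called, against 42 with relative log expression, 1 without a filter, 29 by DESeq2, 0 without the drug term, 24 with all 8 libraries, 113 thinned and 14 to 128 with a library left out. For gilteritinib in the libraries labelled liver, 318 were called, against 35 without a filter, 50 by DESeq2, 29 without the diet term, 155 with all 8 libraries and 37 to 330 with a library left out. For the diet there, 143 were called, against 0 without a filter, 12 by DESeq2, 0 without the drug term, 36 with all 8 libraries and 1 to 146 with a library left out. For the drug difference between labels, 367 were called, and 7 to 452 with a library left out. For the diet difference, 0 were called, against 3 by DESeq2 and 0 to 10 with a library left out. Of the 10 enzymes, 1 was called for the drug in the libraries labelled liver, 0 without a filter and 0 to 1 with a library left out, and 2 differed between labels, 0 to 1 with a library left out. For effects within a label, fits with a library left out used all 8 libraries with separate terms, so they differ from the main fit in model as well. The cause of these changes was not tested. No paired analysis was possible because the labels carry no replicate numbers and each combination has 1 library. Depth limits EZH1 most, at 41 to 171 counts.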

Other observations

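Of 8 arginine methyltransferases tested, which methylate arginines of histones and other proteins, PRMT9 fell by 0.89 (SE 0.26, edgeR adjusted p = 0.0117) and PRMT3 by 0.67 (SE 0.15, edgeR adjusted p = 0.00104) with gilteritinib in marrow, where 9.82% of all tested genes were called lower, and DESeq2 called 1 of the 8. Of 20 histone lysine demethylases, which remove methyl groups from histone lysines, KDM3A fell by 0.47 (SE 0.14, edgeR adjusted p = 0.0110), PHF8 fell by 0.40 (SE 0.13, edgeR adjusted p = 0.0239) and KDM4B rose by 0.41 (SE 0.13, edgeR adjusted p = 0.0203) in marrow. These 3 of 20 compare with 20.3% of all tested genes called there, and DESeq2 called 0 of the 20. None of either list was called in the libraries labelled liver (3 demethylases and 0 arginine methyltransferases at an unadjusted p under 0.05, and 0 by DESeq2).

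Of 8 targets of KMT2A fusion proteins, the homeobox genes MEIS1 and HOXA10 fell with gilteritinib in the libraries labelled liver, by 0.71 (SE 0.15, edgeR adjusted p = 3.66e-04) and 0.46 (SE 0.13, edgeR adjusted p = 0.0192), and MEF2C fell by 0.30 in marrow (SE 0.11, edgeR adjusted p = 0.0440), where 2.26% and 20.3% of all tested genes were called. DESeq2 called 0 of the 8 under either label. On ketogenic diet 5 of 13 myeloid differentiation genes fell in the libraries labelled liver, where 1.01% of all tested genes were called, among them CD86 by 0.73 (SE 0.16, edgeR adjusted p = 0.00216), ITGAM by 0.71 (SE 0.14, edgeR adjusted p = 1.73e-04) and CSF1R by 0.60 (SE 0.15, edgeR adjusted p = 0.00980), of which DESeq2 called 1 in the list.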
